A study of Mus musculus with 6 samples.

Results

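The PARP genes described here are 9 genes of ADP-ribosylation: the interferon-responsive Parp9, Dtx3l, Parp14, Parp10, Parp11 and Parp12, the less studied Parp8, and the constitutive Parp1 and Parp2. They were found by gene symbol, and all 9 had a row among the 36706 genes of the deposited tables and were expressed highly enough to be tested. The grouping into responsive and constitutive genes comes from general knowledge of the family and not from these data, in which every culture received interferon. Expression was measured by RNA sequencing in wild-type mouse cells grown from bone marrow with 20 ng/mL GM-CSF, a cytokine that yields dendritic cells and macrophages in culture. One group of 3 libraries came from cells given IFN-γ, and the other group of 3 from cells given IFN-γ together with 4-octyl itaconate (4-OI), an ester of the immune metabolite itaconate that enters cells. The labels state no dose, treatment time, animal age or batch, and no label says whether replicates were separate cultures or animals, and p-values therefore describe only how far these libraries spread, possibly a technical spread. Sample titles call the cells macrophages and the cell type label calls them dendritic cells. No library came from cells without IFN-γ, so induction by IFN-γ itself was not measured, only the difference that 4-OI made on top of it.

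PARP enzymes transfer ADP-ribose from NAD to proteins. PARP1 and PARP2 build long chains of it at DNA breaks and are expressed in most cells, while most of the interferon-responsive members add single ADP-ribose units or, like PARP9, depend on a partner. PARP9 forms a complex with DTX3L, a ubiquitin ligase, which acts on histones and in the interferon response, and PARP14 carries macrodomains that bind ADP-ribose and is known as a cofactor of STAT6. PARP12 and PARP10 restrict several viruses, and PARP11 acts on the stability of a type I interferon receptor chain.

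Promoter windows from RefSeq (GRCm38.p6, 250 bases before to 50 after the start site) were held for 6 of the 9 members, with Parp11 having 2 start sites, and were absent from the table for Parp9, Parp10 and Parp14. Each was searched on both strands for the core of the interferon-stimulated response element, which is GAAA, any 2 bases, and GAAA again, and for the gamma-activated site, which is TTC, any 3 bases, and GAA. The upstream start of Parp11 was the only window of a member with a match. It held both motifs, the first on the opposite strand from position -44 and the second from position -37 relative to the start site, so that they overlap. Among all 32851 promoter windows in the RefSeq table, 3.44% held the first motif and 8.30% the second. Both Parp11 windows are shown because they differ in this respect, with Dtx3l as the member with the largest fall and Parp1 as a constitutive gene. Capitals mark motif matches, and each sequence is written 5′ to 3′ on the strand of its gene.
Parp11 upstream start, chr6:127446590-127446889, plus strand: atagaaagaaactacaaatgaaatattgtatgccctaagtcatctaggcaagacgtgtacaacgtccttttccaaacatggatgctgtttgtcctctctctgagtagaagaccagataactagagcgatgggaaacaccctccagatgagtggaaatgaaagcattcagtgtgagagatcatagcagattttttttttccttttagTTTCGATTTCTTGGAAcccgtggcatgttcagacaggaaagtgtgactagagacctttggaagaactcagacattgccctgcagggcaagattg
Parp11 downstream start, chr6:127453377-127453676, plus strand: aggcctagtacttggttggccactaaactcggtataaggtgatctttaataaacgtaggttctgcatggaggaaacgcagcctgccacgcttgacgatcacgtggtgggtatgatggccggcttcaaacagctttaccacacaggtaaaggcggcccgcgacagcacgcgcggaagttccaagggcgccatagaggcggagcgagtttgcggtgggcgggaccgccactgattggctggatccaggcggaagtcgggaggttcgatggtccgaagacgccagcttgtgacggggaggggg
Dtx3l, chr16:35938978-35939277, minus strand: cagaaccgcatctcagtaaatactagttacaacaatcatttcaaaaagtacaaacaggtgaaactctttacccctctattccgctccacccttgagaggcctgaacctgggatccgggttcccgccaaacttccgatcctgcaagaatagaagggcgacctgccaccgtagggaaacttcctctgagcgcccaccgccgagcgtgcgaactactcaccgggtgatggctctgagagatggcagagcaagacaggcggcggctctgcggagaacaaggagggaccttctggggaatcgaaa
Parp1, chr1:180568641-180568940, plus strand: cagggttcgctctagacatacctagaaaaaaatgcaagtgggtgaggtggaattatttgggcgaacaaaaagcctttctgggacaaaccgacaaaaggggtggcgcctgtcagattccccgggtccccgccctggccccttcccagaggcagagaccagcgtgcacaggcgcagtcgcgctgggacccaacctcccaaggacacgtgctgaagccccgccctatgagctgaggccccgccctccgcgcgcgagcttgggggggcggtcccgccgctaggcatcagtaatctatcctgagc
A match is a description of the letters in the window. Counts in the deposited tables are per gene, so the use of either Parp11 start was not measured.

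The libraries held 19656368 to 29244717 counts. Levels are given as CPM, counts relative to the library total scaled by TMM factors, and at this depth 3 counts correspond to 0.102 to 0.163 CPM, counting error only, far below any member. The first principal component separated the groups and held 79.5% of the variance, while the second, with 10.7%, set IFN-γ replicate 1 off from its group. Of the markers of conventional dendritic cells, Itgax stood at 514 ± 50.01 CPM with IFN-γ (SD, n = 3), Zbtb46 at 15.5 ± 0.655 CPM and Xcr1 at 0.405 ± 0.130 CPM, and the macrophage marker Adgre1 stood at 875 ± 41.7 CPM. Summed levels of several marker lists differed between groups: 8 monocyte markers went from 1268–1618 to 438–616 CPM, mostly through Ly6c2, 8 mast cell and basophil markers from 341–371 to 103–111 CPM, 14 conventional dendritic cell markers from 2719–3080 to 2041–2190 CPM and 12 macrophage markers from 5656–6550 to 8166–8574 CPM. Within the monocyte list 5 markers fell, while Treml4 rose from 1.00 ± 0.2504 to 16.6 ± 0.736 CPM and Fcgr4 from 11.9 ± 1.62 to 17.5 ± 1.19 CPM (SD, n = 3). Of 13 tested conventional dendritic cell markers, 10 fell. Among them H2-Ab1 went from 1305 ± 175 to 893 ± 69.8 CPM, and Itgax stood at 214 ± 8.73 CPM with 4-OI. Clec9a was the only one called higher, from 9.54 ± 0.980 to 35.6 ± 2.22 CPM. B cell markers summed to 7.81–10.5 CPM and T and NK cell markers to 4.99–12.7 CPM over all libraries. The plasmacytoid marker Siglech had no count in any library. The part of these shifts in the results below was not tested, and in bulk RNA fewer cells of a type cannot be told apart from less RNA per cell.

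The first question was how 4-OI changed the members in cells given IFN-γ. Of the 9 members, 7 fell, 1 rose and 1 did not pass at a Benjamini-Hochberg adjusted p of 0.05 in edgeR's quasi-likelihood test over 14011 genes. Dtx3l and Parp12 fell most, by more than 2-fold, Parp9, Parp14 and Parp11 less, Parp8 by 1.49-fold and Parp2 by 1.16-fold, while Parp10 rose 1.34-fold. Calls were common in this comparison: 48.1% of all tested genes passed, 25.4% as lower and 22.7% as higher. The median log2 fold change was -0.80 over the 9 members and -0.87 over the 6 interferon-responsive ones, against -0.01 over all genes tested. The CPM of the groups did not overlap for any of the 9 members, as was so for 59.5% of all tested genes.

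**Figure D1:**
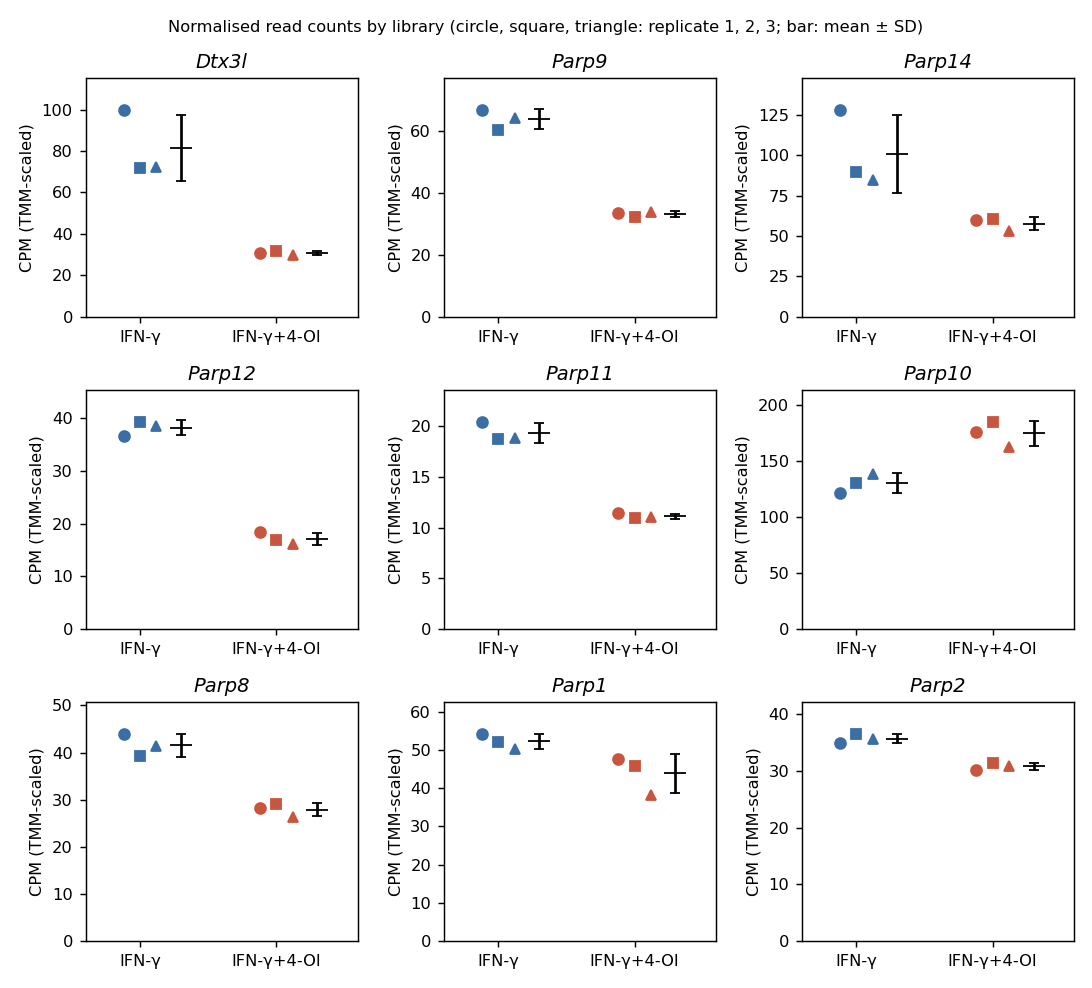
TMM-scaled CPM of each member (y axis, from 0) in the 3 IFN-γ libraries (blue) and the 3 IFN-γ+4-OI libraries (red), with circles, squares and triangles for replicates 1, 2 and 3 and a black bar for mean ± SD. The groups of points do not overlap for any of the 9 members, Parp10 being the one with its red points above the blue.

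The PARP9 and DTX3L partners and Parp14 are encoded next to each other on chromosome 16. Dtx3l, the ubiquitin ligase gene, had 99.99, 72.0 and 72.5 CPM in the IFN-γ libraries and 30.9, 31.6 and 29.7 CPM with 4-OI. The 4-OI libraries lay close together and all below the lowest IFN-γ library, while IFN-γ replicate 1 was well above the other 2. The fall was 2.65-fold (log2 fold change -1.41 ± 0.14, SE; adjusted p in edgeR = 1.17e-04), and 6.78% of tested genes had a lower log2 fold change.

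Parp9, which encodes the partner that recognises ADP-ribose through its macrodomains, had 66.8, 60.2 and 64.1 CPM with IFN-γ and 33.5, 32.03 and 33.7 CPM with 4-OI. Replicates agreed closely in both groups, and the groups stood well apart. It fell 1.92-fold (log2 fold change -0.94 ± 0.08, SE; adjusted p in edgeR = 5.34e-05). Exons of Parp9 and Dtx3l overlap by 334 bases on opposite strands, 8.501% of the exon bases of Parp9 and 6.45% of those of Dtx3l. The library kit keeps strand, but the strand setting of the counting is not given in the sources used here, so reads from that stretch may not be told apart.

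Parp14, the largest of the macrodomain PARPs, had 128, 89.4 and 84.3 CPM with IFN-γ and 59.8, 60.4 and 52.8 CPM with 4-OI. IFN-γ replicate 1 again stood above the rest, and the lowest IFN-γ library was still above the highest 4-OI library. It fell 1.74-fold (log2 fold change -0.80 ± 0.16, SE; adjusted p in edgeR = 0.00440), the largest SE among the members. Without IFN-γ replicate 1 its log2 fold change was -0.60 (adjusted p in edgeR = 2.06e-04). Leaving that library out removes spread, so this p-value is not comparable with the one over all libraries. Without that library and 4-OI replicate 3 together it was -0.53, with no p-value given because those libraries were left out for standing apart. Dtx3l kept more of its size in those fits, at -1.24 and -1.21.

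Parp12 encodes a zinc finger mono-ADP-ribosyltransferase of stress granules and the Golgi. Its levels were 36.7, 39.4 and 38.6 CPM with IFN-γ and 18.3, 16.8 and 16.1 CPM with 4-OI. In contrast to Dtx3l and Parp14, IFN-γ replicate 1 was the lowest library of its group. Parp12 fell 2.24-fold (log2 fold change -1.16 ± 0.09, SE; adjusted p in edgeR = 2.62e-05).

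Parp11, whose upstream promoter window held both interferon motifs, was the least abundant member. It had 20.5, 18.7 and 18.8 CPM with IFN-γ and 11.4, 10.97 and 10.997 CPM with 4-OI, with no overlap. It fell 1.74-fold (log2 fold change -0.80 ± 0.09, SE; adjusted p in edgeR = 1.83e-04).

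Parp10, a mono-ADP-ribosyltransferase that can restrict viral replication, went the other way. Its levels under IFN-γ were 121, 131 and 139 CPM, and those after adding 4-OI were 176, 185 and 162 CPM, so that every 4-OI library was above every IFN-γ library. It rose 1.34-fold (log2 fold change 0.42 ± 0.09, SE; adjusted p in edgeR = 0.00515). With libraries scaled by total counts alone, which moved the median log2 fold change of all genes to -0.27, that of Parp10 was 0.17 (adjusted p in edgeR = 0.205). Relative to that median it was 0.44. The other 14 alternative settings, which include the fit without IFN-γ replicate 1 and 4-OI replicate 3, kept it as higher.

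Parp8, a member with few known substrates, had 44.0, 39.2 and 41.4 CPM with IFN-γ and 28.3, 29.2 and 26.3 CPM with 4-OI. Its fall of 1.49-fold lay between those of the responsive genes that fell and those of the constitutive genes (log2 fold change -0.57 ± 0.09, SE; adjusted p in edgeR = 0.00102).

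The constitutive DNA repair genes moved least. Parp1 had 54.3, 52.1 and 50.3 CPM with IFN-γ and 47.6, 45.8 and 38.1 CPM with 4-OI, lower in each 4-OI library than in any IFN-γ library by a small margin. It did not pass (log2 fold change -0.25 ± 0.10, SE; adjusted p in edgeR = 0.0759), and it passed as lower in 3 of 15 alternative settings. These 3 include the fit without IFN-γ replicate 1 and 4-OI replicate 3, which were left out for standing apart. Parp2 had 35.0, 36.6 and 35.6 CPM with IFN-γ and 30.2, 31.4 and 30.9 CPM with 4-OI. Its fall was called just inside the threshold (log2 fold change -0.21 ± 0.08, SE; adjusted p in edgeR = 0.0494). The call held in 5 of 15 alternative settings, and that same fit is among the 5.

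**Figure D2:**
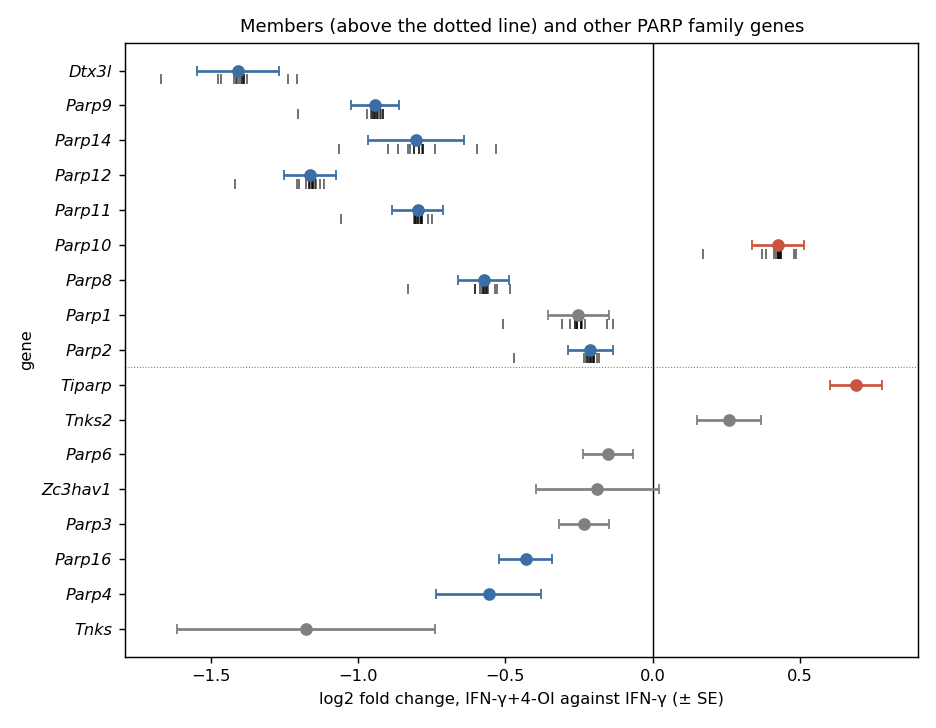
Log2 fold change with 4-OI (x axis, point ± SE) for each gene (y axis), with members above the dotted line and the other PARP family genes below it; blue passed as lower, red as higher and grey did not pass, and short black ticks under the members give the 15 alternative settings. Dtx3l lies farthest left among the members at -1.41, Parp1 and Parp2 lie at -0.25 and -0.21, and Parp10 is the member right of 0 at 0.42.

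To compare the responsive with the constitutive genes without any scaling between libraries, each gene's length-normalised level (TPM) was divided by that of Parp1, or of Parp2, in the same library. The ratio of Dtx3l to Parp1 was 1.30, 0.975 and 1.02 in the IFN-γ libraries but 0.459, 0.487 and 0.549 once 4-OI was added. With IFN-γ alone Dtx3l was thus about as abundant per length as Parp1, and with 4-OI it was well below it in every library. The ratio of Parp12 to Parp1 went from 0.766, 0.856 and 0.869 to 0.436, 0.416 and 0.478, and that of Parp9 from 1.14, 1.08 and 1.18 to 0.656, 0.650 and 0.823. The ratio of Parp14 to Parp1 went from 1.02, 0.740 and 0.722 to 0.541, 0.568 and 0.596, its IFN-γ replicate 1 standing apart. For these 4 genes the groups did not overlap, and the same held against Parp2. In CPM this was so for 59.5% of all tested genes.

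Parp11 had a ratio to Parp1 of 0.237 ± 0.00606 with IFN-γ and 0.164 ± 0.0181 with 4-OI (SD, n = 3). For Parp8 the ratios were closer, at 0.304 ± 0.0144 and 0.245 ± 0.0182. Parp10 was 2.69 ± 0.281 times as abundant per length as Parp1 with IFN-γ and 4.31 ± 0.304 times with 4-OI. Of the 14 ratios of the 7 other members to Parp1 or Parp2, 12 were lower and 2, both those of Parp10, were higher in every 4-OI library than in any IFN-γ library. They are 7 genes set against 2 denominators, so they are not 14 separate observations. The share over all genes was not computed for ratios. In CPM the groups did not overlap for 59.5% of all tested genes. The 2 constitutive genes kept their proportion: Parp1 to Parp2 was 1.64 ± 0.0867 with IFN-γ and 1.598 ± 0.196 with 4-OI. An exact two-sided permutation test over 3 against 3 libraries cannot go below 0.1, the value that each of the 14 ratios gave (0.107 after adjustment over 15 ratios), and gave p = 0.9 for Parp1 to Parp2. That test therefore cannot pass 0.05 here, and the size of a difference is better read against the spread between replicates. On the log2 scale the ratio of Parp12 to Parp2 differed by -0.95 with a pooled SD of 0.0859, that of Parp9 to Parp2 by -0.73 with 0.0894, and that of Parp14 to Parp2 by -0.57 with 0.261.

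**Figure D3:**
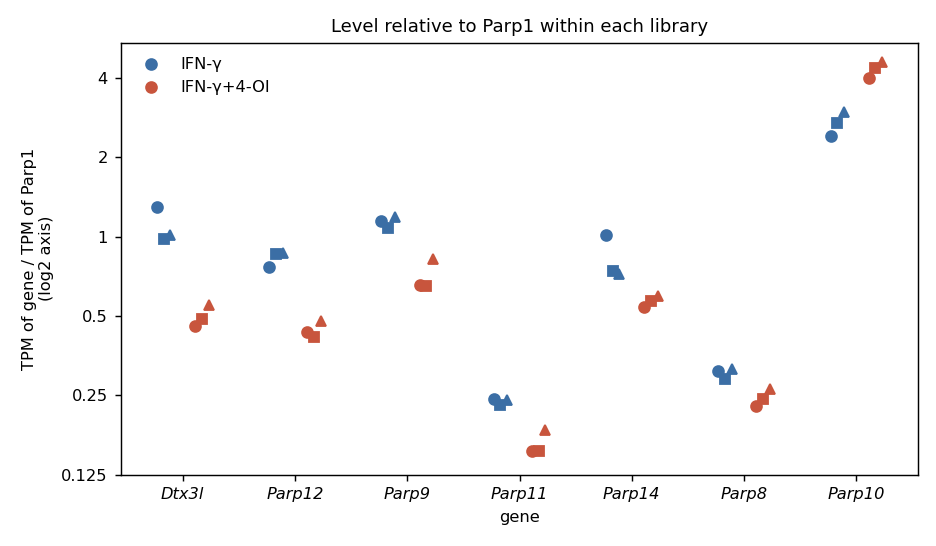
TPM of each gene divided by TPM of Parp1 in the same library (y axis, log2 scale), for the 3 IFN-γ (blue) and 3 IFN-γ+4-OI libraries (red), with circles, squares and triangles for replicates 1, 2 and 3. Red points lie below blue for every gene from Dtx3l to Parp8 and above them for Parp10, whose ratio goes from 2.69 to 4.31 on average.

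Ratios among the 3 chromosome 16 genes showed that they did not fall by the same amount. Parp14 to Dtx3l was 0.782, 0.758 and 0.710 in the IFN-γ libraries but 1.18, 1.17 and 1.09 once 4-OI was added, so the order of the pair turned around in every library. Dtx3l to Parp9 was 1.14, 0.907 and 0.858 in the IFN-γ libraries but 0.699, 0.748 and 0.667 once 4-OI was added. Parp14 to Parp9 overlapped between groups, at 0.728 ± 0.144 and 0.807 ± 0.0757 (SD, n = 3).

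By TPM, the order of levels with IFN-γ began with Parp10 at 88.4 ± 6.15, followed by Parp9 at 37.6 ± 6.20, Dtx3l at 36.9 ± 11.8, Parp1 at 33.1 ± 5.01, Parp14 at 27.9 ± 10.1 and Parp12 at 27.3 ± 2.16 (SD, n = 3). From Parp9 to Parp12 each neighbour in that order overlapped the next. Parp2 at 20.1 ± 1.93 lay below them, and Parp8 at 10.1 ± 1.76 and Parp11 at 7.88 ± 1.34 came last and overlapped each other. With 4-OI, Parp10 led at 91.4 ± 13.6 and Parp1 came second at 21.4 ± 4.19, neither overlapping the next. Parp9, Parp2, Parp14, Dtx3l and Parp12 followed in a run of overlapping neighbours from 14.9 ± 1.151 to 9.40 ± 1.35, and Parp8 and Parp11 stood last at 5.18 ± 0.716 and 3.46 ± 0.347. Parp1 thus moved from the fourth to the second place and Dtx3l from the third to the sixth. TPM is scaled to each library's own total and carries no TMM factor, so these levels rank genes within a group.

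The rest of the PARP family gives the setting. Of its 8 other members, 1 rose, 2 fell and 5 did not pass, with a median log2 fold change of -0.21. Over all tested genes 22.7% rose and 25.4% fell. Tiparp, a mono-ADP-ribosyltransferase induced by the aryl hydrocarbon receptor, rose from 223 ± 16.8 to 360 ± 16.1 CPM (SD, n = 3; adjusted p in edgeR = 4.29e-04). Parp16, the PARP of the endoplasmic reticulum, fell from 25.4 ± 0.648 to 18.8 ± 1.35 CPM (adjusted p in edgeR = 0.00472). Parp4, of the vault particle, fell from 68.6 ± 19.1 to 46.6 ± 0.603 CPM (adjusted p in edgeR = 0.0322), a call lost without any 1 of the 3 libraries with 4-OI (adjusted p in edgeR = 0.0797 to 0.0978). Without IFN-γ replicate 1 its log2 fold change went from -0.56 to -0.31.

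The antiviral zinc finger gene Zc3hav1, another interferon-responsive member by background, had a log2 fold change of -0.19 (adjusted p in edgeR = 0.490), and leaving out IFN-γ replicate 1 turned it to 0.07 (adjusted p in edgeR = 0.663). The repair gene Parp3 had -0.23 and Parp6 -0.15 (adjusted p in edgeR = 0.0523 and 0.170). Of the tankyrases, Tnks had -1.18 ± 0.44 (SE) and Tnks2 0.26 ± 0.11 (adjusted p in edgeR = 0.0562 and 0.0840). Without IFN-γ replicate 1, Tnks stood at -0.50 (adjusted p in edgeR = 0.108) and Tnks2 at 0.37 (adjusted p in edgeR = 0.00102). Leaving out that library, which stood apart, removes spread, and 7835 genes were then called against 6736. The p-values of that fit are therefore not comparable with those over all libraries. With total-count scaling 5 of the 8 passed as lower and Tnks2 stood at -0.0047 on the log2 scale. As a share of the summed TPM of 16 PARP family genes, Parp9, Parp10, Parp11, Parp12 and Parp14 together made up 34.9% ± 2.42 with IFN-γ and 30.1% ± 0.725 with 4-OI, while Parp10 went from 16.5% ± 2.27 to 21.0% ± 0.825 and Tiparp from 22.9% ± 0.240 to 35.4% ± 0.795 (SD, n = 3).

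On chromosome 16 the locus spans, in the coordinates of the deposited tables, 35652262 to 35691904 for Parp14 (minus strand), 35746885 to 35759397 for Dtx3l (minus strand) and 35758840 to 35792991 for Parp9 (plus strand). Parp9 and Dtx3l start head to head and overlap by 557 bases at their starts. The promoter windows above carry RefSeq's coordinates and cannot be placed on these deposited ones. Of the 9 other tested genes within 200 kb, 1 fell, 3 rose and 5 did not pass, a share of calls near the 48.1% over all tested genes. Hspbap1, next to Parp14, fell 1.44-fold (adjusted p in edgeR = 0.00496), and Slc49a4, beyond it, rose 1.32-fold (adjusted p in edgeR = 0.00936), which did not pass with total-count scaling (adjusted p in edgeR = 0.231). On the other side Kpna1, an importin gene beside Parp9, had a log2 fold change of 0.13 (adjusted p in edgeR = 0.351), and Wdr5b, Fam162a, Ccdc58 and Stfa2l1 had -0.07, -0.10, 0.05 and -0.14, none of which passed. The RNAs Gm15564 and Gm41450 were called higher from means of 1.53 and 0.853 CPM, with SEs of 0.91 and 0.41 on the log2 scale. Gm15564 lies partly within the span of Parp9 on the opposite strand and shares no exon base with it.

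**Figure D4:**
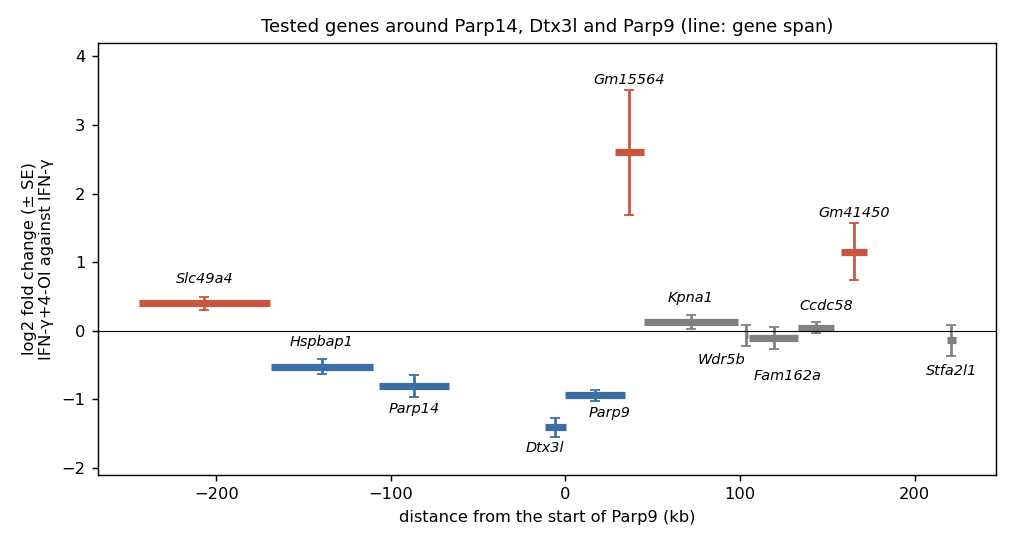
Log2 fold change with 4-OI (y axis, ± SE) of the 12 tested genes around Parp14, Dtx3l and Parp9, placed by distance from the start of Parp9 in kb (x axis), with the horizontal line as the gene span; blue passed as lower, red as higher and grey did not pass. The 3 members and Hspbap1 lie below 0, and Kpna1, the coding gene next to Parp9, lies at 0.13.

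Genes with library profiles nearest to the mean of Parp9, Dtx3l and Parp14 were sought among 8661 other genes with at least 10 CPM, by the root mean square distance of centred log2 CPM over the 6 libraries. The 5 nearest were Itgam, Pdcd1lg2, Mtmr4, Atp10a and Agap1, at distances of 0.0307 to 0.0389. Itgam, which encodes the integrin chain CD11b, went from 1417 ± 214 to 674 ± 34.7 CPM, and Pdcd1lg2, the PD-1 ligand PD-L2, from 82.3 ± 15.5 to 40.0 ± 1.73 CPM (SD, n = 3). Of the 3 genes that form that mean, Parp9 lay at 0.114 from it, Parp14 at 0.149 and Dtx3l at 0.179. Parp11 at 0.150 and Parp12 at 0.171 were nearer than Dtx3l, and Parp10 lay at 0.752. These distances describe 6 libraries in 2 groups that share the treatment difference.

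The pathways that the PARPs act in were described by lists. For PARP14 the list was STAT6 and its targets. Of 14 tested genes, 9 fell, 1 rose and 4 did not pass, with a median log2 fold change of -0.99 against -0.01 over all genes. Among all tested genes 25.4% fell and 22.7% rose. Beside these genes, mast cell and basophil markers fell in 6 of 6 tested cases, conventional dendritic cell markers in 10 of 13 and monocyte markers in 5 of 8, and their part was not tested. Arg1 fell 6.57-fold, Pparg 3.79-fold and Cish, which STAT5 also drives, 2.15-fold (adjusted p in edgeR = 2.83e-06, 1.19e-05 and 2.09e-05). Tgm2 was the gene that rose, 1.54-fold (adjusted p in edgeR = 8.86e-04). Chil3, the most abundant of the list, had a log2 fold change of 0.04 (adjusted p in edgeR = 0.810). Summed levels of the list overlapped between groups, at 7506–9014 CPM with IFN-γ and 7089–7997 CPM with 4-OI. Stat6 itself had a log2 fold change of 0.02 (adjusted p in edgeR = 0.850).

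**Figure D5:**
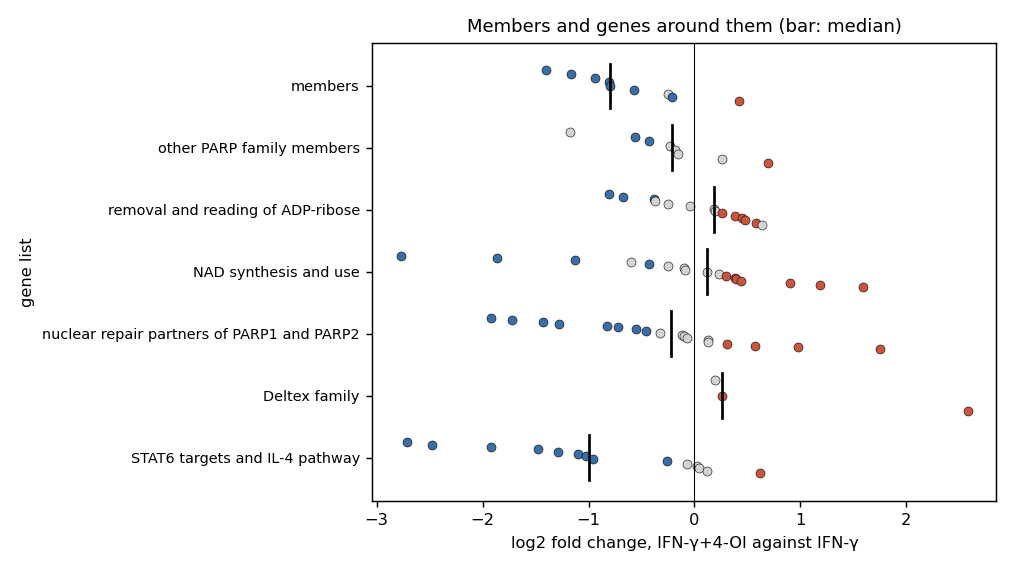
Log2 fold change with 4-OI (x axis) of the 9 members and of the tested genes of 6 lists (y axis), each point a gene, blue for lower, red for higher and grey for not passing, with a bar at the median. The medians of the members and of the STAT6 list lie at -0.80 and -0.99, and that of NAD synthesis and use at 0.12.

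NAD is the substrate of every active PARP. Of 17 tested genes of its synthesis and use, 7 rose and 4 fell, with a median of 0.12. The shares over all tested genes were 22.7% higher and 25.4% lower. Nampt, the rate-limiting enzyme of NAD salvage, rose from 461 ± 7.44 to 1387 ± 64.5 CPM (SD, n = 3; adjusted p in edgeR = 6.94e-06). Cd38, which breaks NAD down, fell from 303 ± 9.26 to 83.6 ± 5.16 CPM, and Kmo, an enzyme of NAD synthesis from tryptophan, fell 6.83-fold. Bst1, also in this list, was called higher, from 431 ± 36.4 to 561 ± 55.4 CPM (adjusted p in edgeR = 0.0210). With total-count scaling 3 genes of this list were higher and 8 lower. Kmo is also among the markers of conventional dendritic cells, of which 10 of 13 tested fell, and their part was not tested.

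Enzymes that remove ADP-ribose and proteins that read it moved in either direction: 5 of 14 rose and 3 fell (median 0.19). Beside them, 22.7% of all tested genes rose and 25.4% fell. Macroh2a1, a macrodomain histone, fell 1.59-fold, Rnf146, a ubiquitin ligase that reads poly-ADP-ribose, rose 1.39-fold and Adprs, a hydrolase that removes ADP-ribose, rose 1.497-fold (adjusted p in edgeR = 4.17e-04, 0.00170 and 0.00362). With total-count scaling 1 was higher and 6 lower, and Rnf146 did not pass (adjusted p in edgeR = 0.0881). Parg, the main enzyme that breaks the chains, had a log2 fold change of -0.25 (adjusted p in edgeR = 0.160).

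Among 18 repair partners of PARP1 and PARP2, 8 fell and 4 rose, with a median of -0.22. Over all tested genes the shares were 25.4% lower and 22.7% higher. Neil2, a DNA glycosylase, rose 3.36-fold, while the glycosylase gene Neil3 fell 3.29-fold and the replication ligase gene Lig1 2.69-fold (adjusted p in edgeR = 6.20e-06, 8.00e-06 and 1.53e-05). Hpf1, the cofactor of PARP1 and PARP2, had a log2 fold change of 0.13 (adjusted p in edgeR = 0.522). Of the Deltex genes related to Dtx3l, 2 of 3 tested rose and none fell. Dtx4 rose 5.99-fold, from 30.9 ± 3.42 to 185 ± 8.10 CPM (adjusted p in edgeR = 2.31e-06), opposite to Dtx3l. Dtx2 was called higher by 1.20-fold (adjusted p in edgeR = 0.0417), a call lost in 8 of 15 alternative settings, and Dtx3 had a log2 fold change of 0.19 (adjusted p in edgeR = 0.177), or -0.06 with total-count scaling.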

How the data were processed

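RNA was measured in 6 libraries, 3 per group, grouped and numbered by their titles. HISAT2 and mm10 appear in the submitters' processing notes; the annotation, the counter and whether it used strand were not given in the sources used here. Per the file headers, the authors deposited counts, TPM and FPKM per gene. Counts were used as deposited. Deposited TPM and FPKM matched values recomputed from counts and gene lengths in 100% of values (relative tolerance 1e-06); TPM served only for levels and ratios, and FPKM was not used. Of the 9 members, 0 shared a start or end with RefSeq's GRCm38 table, while 5 had the same span. The deposited coordinates are thus not those of GRCm38 (mm10), and the assembly they follow is not known. Gene coordinates here are the deposited ones, and promoter windows carry RefSeq's build.

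Groups were compared with edgeR 4.0.16 (R 4.3.3): filterByExpr with a minimum count of 10, TMM factors, robust quasi-likelihood test, Benjamini-Hochberg adjustment at 0.05 over 14011 genes. The script was tested on simulated data. CPM use the total of the tested genes. No replicate pair agreed within sampling noise (lowest chi-square per gene 4.31). Alternatives were RLE, upper quartile and no scaling factors, other filters, DESeq2 1.42.0, limma-voom (limma 3.58.1), the replicate number as a block, leaving out libraries and a threshold of 0.01.

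Members and lists were chosen with earlier results of these data known. Named are all members and other PARP genes, of each list the 3 with the smallest adjusted p, genes within 200 kb of the chromosome 16 locus and the 5 nearest profiles; genes named beyond these, such as markers, Parg, Hpf1 and Stat6, were chosen after values were seen. Adprs was matched by its synonym Adprhl2. A further pathway list that was planned is not reported here.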

Additional observations from a re-analysis of the deposited data

How the results depend on the processing

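Of 135 values of the 9 members under alternatives, 121 kept their direction and side of the threshold, 11 lost the call, 3 gained one and 0 turned around; of 540 values of other named genes the counts were 481, 28, 20 and 11. Parp8, Parp9, Parp11, Parp12, Parp14 and Dtx3l passed as lower in all 15 alternatives. All these counts include the fit without IFN-γ replicate 1 and 4-OI replicate 3, whose calls are not comparable with the others, as described below. Scaling by total counts alone moved the median log2 fold change of all genes from -0.01 to -0.27: 1719 genes were then higher and 5452 lower, 24.0% of calls being higher against 47.2%. Under it 0 members, and so 0 interferon-responsive ones, were higher, as were 1 Deltex gene, 3 NAD genes (8 lower) and 1 gene of ADP-ribose removal and reading (6 lower), with 5 other PARP genes lower. Kpna1 turned to -0.14, Ccdc58 to -0.22, Dtx3 to -0.061 and Tnks2 to -0.0047. With upper quartile factors, no filter, DESeq2 or a threshold of 0.01, 1 Deltex gene was higher. That threshold left 2079 genes higher in all, 4 NAD genes and 3 genes of ADP-ribose removal and reading higher, and 1 other PARP gene lower. The fit named above left out both libraries that stand apart (IFN-γ replicate 1, 4-OI replicate 3). That choice removes spread, and 9296 genes were then called against 6736, so its calls are not comparable with the others. In that fit the other PARP genes had 3 higher and 4 lower, and Zc3hav1 stood at 0.20. Where these changes do not follow from the scaling, the stricter threshold or fewer samples, the cause was not tested.

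Leaving out each library in turn gave 1 to 2 Deltex genes higher, 1 to 2 other PARP genes higher and 1 to 3 lower, and 3 to 5 genes of ADP-ribose removal and reading higher. Log2 fold changes then ranged from -0.18 to 0.039 for Wdr5b, -0.27 to 0.0093 for Fam162a, -0.00075 to 0.10 for Ccdc58, -0.38 to 0.025 for Stfa2l1 and -0.30 to 0.070 for Zc3hav1. The replicate numbers do not pair the samples by the labels, and deviations of same-numbered libraries correlated at 0.26, -0.10 and 0.19. With the replicate number as a block, 7513 genes were called against 6736, 2 other PARP genes were higher, Parp1 passed at -0.26 (adjusted p in edgeR = 0.0417) and Parp2 did not at -0.21 (adjusted p in edgeR = 0.0837). The lowest count of any member was 210, for Parp11 in 4-OI replicate 1. Counting error and the difference between replicates both enter the spread, and they were not separated. Each estimate rests on 3 libraries per group.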

Other observations

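IFN-γ replicate 1 was the highest of its group for 6 of the 9 members and the lowest for the other 3, Parp12, Parp10 and Parp2. The same library stood out more in other PARP genes. Tnks, a tankyrase gene, had 88.8 CPM there against 31.6 and 30.9 CPM in IFN-γ replicates 2 and 3, and 28.0, 24.5 and 14.5 CPM with 4-OI. Zc3hav1 had 133 CPM there against 80.7 and 85.6 CPM, and 100.3, 91.3 and 71.5 CPM with 4-OI, where replicate 3 was again the lowest. A fit without IFN-γ replicate 1 and 4-OI replicate 3 left them out because they stood apart, so no p-value is given. In it Zc3hav1 had a log2 fold change of 0.20, Tnks2 one of 0.38 and Tnks one of -0.26. No label explains this difference between libraries of 1 group, and its source was not tested.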
